A study of Mus musculus with 2 samples.

Results

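The genes described here are 42 genes known for their roles in the germline and in meiosis, read on 2 Affymetrix arrays of mouse embryonic stem (ES) cells. The members were found by symbol: every probe set, a group of short probes against one transcript, that the platform annotation assigns to exactly 1 of these symbols was kept. This gave 48 probe sets for 39 of the 42 genes, out of 18194 genes measured in all. Nanos2, Nanos3 and Tdrd6 had no such probe set and were not measured here. Both arrays belong to 1 group, the ES cell line that the labels give the genotype Del1.3MbWBS, a 1.3 Mb deletion of the segment lost in the human Williams-Beuren syndrome (WBS). The labels do not say which genes the deletion covers, whether 1 or both copies were lost, or how many clones were used. The medium held 20% serum replacement and LIF, the cytokine leukaemia inhibitory factor, the cells always grew on feeder cells, and no line without the deletion was analysed here. The labels call the arrays biological replicates but do not say what separated them, so the spread between them may be technical.

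Germ cells are set aside early in the mouse embryo, and only they later enter meiosis, in which homologous chromosomes pair along a protein axis, break, exchange DNA and part. The germline also guards its genome with PIWI proteins and their small RNAs, the piRNAs, which silence transposons. In mouse ES cells many of these genes are known to be held at low levels by DNA methylation of CpG-rich promoters and by PRC1.6, a Polycomb complex whose MGA-MAX pair binds the E-box letters CACGTG and whose E2F6 subunit binds E2F elements. Some germ cell genes are also known to be transcribed in pluripotent cells.

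Values are RMA (robust multi-array average) log2 values, and a gene with several probe sets is represented by its brightest. Above background means here that the mean of a gene, and its value on each array, exceeded the 95th percentile of the values of 39 olfactory receptor genes, which ES cells are not expected to transcribe. That threshold was 5.59 for the mean, 5.60 on replicate 1 and 5.58 on replicate 2. Probes differ in affinity, so levels of different genes were not ranked against each other. Each was set against this threshold and, further below, against the highest mean of markers not expected in this culture. With 1 group there was no test between groups. SDs rest on 2 arrays.

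Of the 39 measured members, 28 (71.8%) were above background and 11 were not. Of all 18194 genes 68.4% were above background, so the members' share lay near that of all genes. With vomeronasal and taste receptor genes as the reference it was 51.3% of members, against 61.5% of all genes. By probe sets, with a threshold from 44 olfactory receptor probe sets, 34 of 48 were above background, against 62.7% of all probe sets with 1 symbol. Members had 1.23 probe sets each on average and all genes 1.92, which gives other genes more chances to pass. Among genes with exactly 1 probe set, 21 of 31 members (67.7%) passed, against 53.4% of all such genes, a comparison added after the data were seen. By more than 2 log2 units, a margin chosen after the data were seen, 11 members (28.2%) exceeded the threshold, against 45.8% of all genes.

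**Figure D1:**
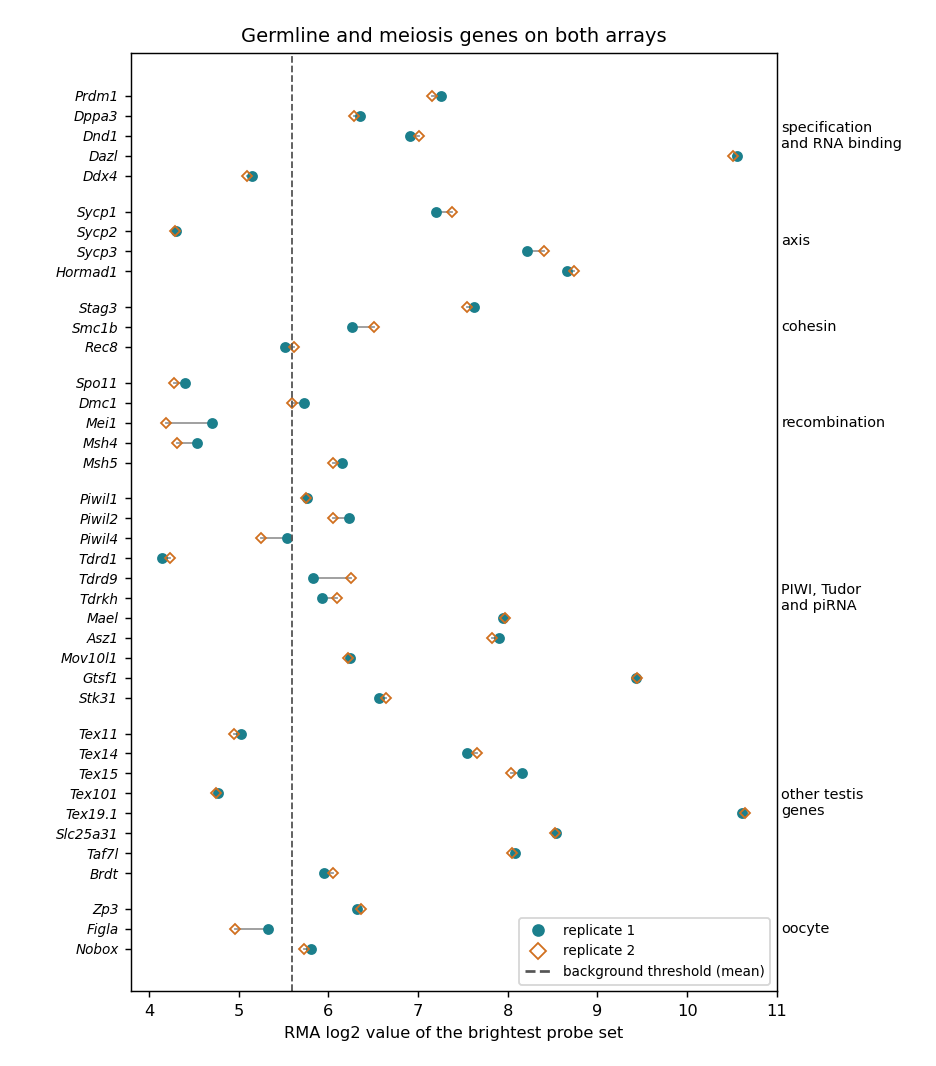
RMA log2 values of the 39 measured germline and meiosis genes on replicate 1 (filled circles) and replicate 2 (open diamonds), 1 row per gene, grouped by role. The dashed line is the background threshold of 5.59 for the mean of both arrays; 28 genes lie above background and 11 do not.

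Calls near the threshold depended on the rule. Under 7 alternative rules, 20 members stayed above background wherever they were measured, 9 were above under none, and 10 changed. Under the same rules the share of all genes above background ran from 61.5% to 74.8%. How many of all genes changed was not counted, so the members' counts cannot be set against it. The 20 were Prdm1, Dppa3, Dnd1, Dazl, Sycp1, Sycp3, Hormad1, Stag3, Smc1b, Mael, Asz1, Mov10l1, Gtsf1, Stk31, Tex14, Tex15, Tex19.1, Slc25a31, Taf7l and Zp3. The 9 were Ddx4, Sycp2, Spo11, Mei1, Msh4, Tdrd1, Tex11, Tex101 and Figla. The 10 were Rec8, Dmc1, Msh5, Piwil1, Piwil2, Piwil4, Tdrd9, Tdrkh, Brdt and Nobox.

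The RNA came from the whole culture. All 8 measured ES cell markers were above background, with Pou5f1 at 12.65 on replicate 1 and 12.62 on replicate 2, Nanog at 12.15 and 12.06, and Sox2 at 12.08 and 12.14. All 9 measured fibroblast markers were above it too, with means between 9.18 and 14.87, among them Col1a1 (12.69 on replicate 1 and 12.66 on replicate 2), Col1a2 (14.88 and 14.87) and Col3a1 (14.87 and 14.86). Which cells a germline transcript came from was not tested, and in such bulk RNA fewer cells of a type and less RNA per cell cannot be told apart. Markers of the somatic cells of testis and ovary, not expected in this culture, were above background in 4 of 7 cases, against 68.4% of all genes. Amh, a Sertoli cell hormone, had 6.69 on replicate 1 and 6.86 on replicate 2, Foxl2, a granulosa cell factor, 6.23 and 6.27, and Star, a steroidogenic transport protein, 6.28 and 5.98. Cyp17a1 (5.27 and 5.21) and Hsd3b1 (4.58 and 4.73), which encode steroidogenic enzymes, were not. With vomeronasal and taste receptors as the reference 2 of the 7 passed, against 61.5% of all genes. The markers that passed had means of up to 6.77, and 13 of the 28 members above background had means under that value, among them Dppa3, Smc1b, Mov10l1, Stk31 and Zp3. Of all measured members, 10 had means within 0.5 log2 units of the threshold. The matching shares of all genes were not counted, so these 2 counts do not set the members apart from other genes.

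The members were chosen by symbol, and their promoters were then read. RefSeq windows of 300 bases, 250 before and 50 after the transcription start, were at hand for 33 of the 39 measured members. Dppa3, Piwil2, Spo11, Tex11 and Tex15 had no entry among the windows used. Dnd1 lay outside the windows searched, for the reason given with the processing. The E-box letters CACGTG, which read the same on both strands, stood in 15 of the 33 windows (45.5%), against 9.04% of 14450 genes on the array. Of the windows of members above background 13 of 24 (54.2%) held it, and of members not above background 2 of 9 (22.2%), those of Ddx4 and Tdrd1. These shares depend on the call rule and were not recounted under others. Brdt, Piwil1 and Tdrd9, whose windows hold CACGTG, were not above background with vomeronasal and taste receptors as the reference. Other germline genes were taken from the related lists below. Their windows held CACGTG in 2 of 24 cases (8.33%) above background and in 2 of 16 (12.5%) not above it. The E2F-type letters GGCGGGA, searched on both strands, stood in 7 of 33 windows (21.2%), against 17.3% of all genes on the array. Letters of both kinds stood in 5 of 33 windows (15.2%), against 1.96% of all genes on the array. The letters TATAAA, also searched on both strands, were in 4 of 33 (12.1%), against 9.87%. In Piwil4 and Tex19.1 the match was only the reverse complement TTTATA. A match describes letters in a window and is not evidence of binding, and no test was made of these shares. Whether the choice of genes itself favoured such promoters was not tested.

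The 5 windows that hold letters of both kinds are shown here, with the 4 of genes above background first (Hormad1, Mael, Slc25a31 and Zp3) and that of Ddx4, which was not above background, after them. That of Tex19.1 follows for contrast, as that of a member far above the threshold with neither set of letters. Sequences are from RefSeq on GRCm38.p6, written 5′ to 3′ along the gene. Capitals mark CACGTG, and GGCGGGA or its reverse complement TCCCGCC.
Hormad1 (chr3:95559427-95559726, plus strand): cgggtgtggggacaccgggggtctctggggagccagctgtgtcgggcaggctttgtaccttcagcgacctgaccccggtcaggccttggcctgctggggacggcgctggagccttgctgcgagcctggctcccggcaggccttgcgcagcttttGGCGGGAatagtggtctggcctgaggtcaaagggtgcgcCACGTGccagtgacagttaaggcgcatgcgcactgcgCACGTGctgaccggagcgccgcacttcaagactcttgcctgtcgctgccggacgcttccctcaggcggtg
Mael (chr1:166238695-166238994, minus strand): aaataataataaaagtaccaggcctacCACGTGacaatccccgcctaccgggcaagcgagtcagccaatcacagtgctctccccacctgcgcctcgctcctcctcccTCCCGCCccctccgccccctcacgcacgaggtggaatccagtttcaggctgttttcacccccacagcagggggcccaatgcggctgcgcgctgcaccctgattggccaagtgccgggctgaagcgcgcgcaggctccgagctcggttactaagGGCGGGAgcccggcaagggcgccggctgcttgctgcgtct
Slc25a31 (chr3:40708621-40708920, plus strand): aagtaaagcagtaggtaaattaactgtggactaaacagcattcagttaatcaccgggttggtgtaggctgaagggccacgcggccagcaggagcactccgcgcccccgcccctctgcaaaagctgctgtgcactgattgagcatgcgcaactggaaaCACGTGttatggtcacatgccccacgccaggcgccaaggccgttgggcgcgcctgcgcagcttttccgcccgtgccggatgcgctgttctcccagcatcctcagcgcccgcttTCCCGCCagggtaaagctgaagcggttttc
Zp3 (chr5:135979855-135980154, plus strand): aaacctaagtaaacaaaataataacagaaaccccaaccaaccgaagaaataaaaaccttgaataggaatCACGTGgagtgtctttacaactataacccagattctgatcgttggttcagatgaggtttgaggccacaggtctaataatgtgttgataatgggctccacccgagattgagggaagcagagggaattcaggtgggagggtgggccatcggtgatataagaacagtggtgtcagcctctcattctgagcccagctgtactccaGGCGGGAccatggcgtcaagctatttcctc
Ddx4 (chr13:112652261-112652560, minus strand): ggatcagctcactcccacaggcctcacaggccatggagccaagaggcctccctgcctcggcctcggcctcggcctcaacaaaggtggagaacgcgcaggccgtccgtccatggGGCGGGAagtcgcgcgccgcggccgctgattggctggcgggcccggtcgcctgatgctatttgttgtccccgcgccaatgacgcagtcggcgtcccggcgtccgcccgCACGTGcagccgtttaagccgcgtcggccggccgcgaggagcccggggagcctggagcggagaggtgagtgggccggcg
Tex19.1 (chr11:121145893-121146192, plus strand): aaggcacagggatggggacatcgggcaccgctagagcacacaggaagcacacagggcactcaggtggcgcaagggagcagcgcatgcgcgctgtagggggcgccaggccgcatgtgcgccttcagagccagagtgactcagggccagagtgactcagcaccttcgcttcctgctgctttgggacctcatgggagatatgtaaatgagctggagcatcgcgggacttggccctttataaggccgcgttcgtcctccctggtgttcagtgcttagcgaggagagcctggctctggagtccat

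In these windows the E-box of Slc25a31 began 93 bases before the start site and that of Ddx4 29 bases before it. Hormad1 had a pair, 57 and 20 bases before the start. The E-box lay further out in Zp3, 181 bases before the start, and in Mael, 223 bases before it. Over the 15 member windows with CACGTG there were 19 matches, 12 of them (63.2%) in the last 100 bases before the start, against 47.5% of 1464 matches in all genes on the array. The median match, however, began 93 bases before the start in members and 71 bases before it over all genes on the array. Matches over all genes ran to 45 bases after the start, and the last member match began 11 bases before it. CpG content differed among members as well. The ratio of observed to expected CpG had a median of 0.75 in members above background, 0.57 in members not above it and 0.67 over all genes on the array. It ran from 0.36 in Sycp2 to 1.08 in Smc1b. The lowest ratio among members above background was 0.41 and the highest among members not above it was 0.98, so the ranges overlapped.

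**Figure D2:**
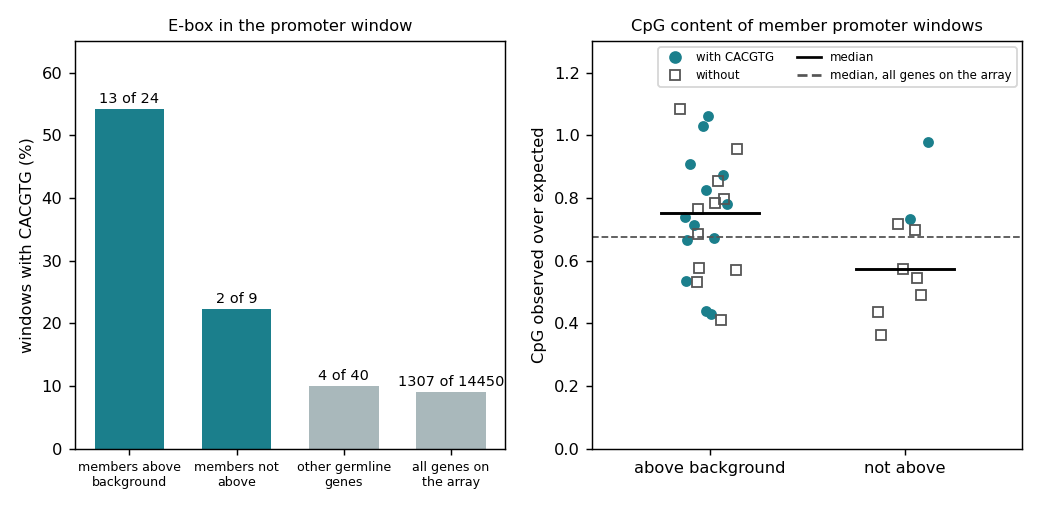
Left: percentage of 300-base promoter windows holding CACGTG in members above background (13 of 24), members not above it (2 of 9), other germline genes (4 of 40) and all genes on the array (1307 of 14450). Right: observed over expected CpG of each member window, by call, with filled circles for windows with CACGTG, bars for the medians (0.75 and 0.57) and a dashed line for the median of all genes on the array (0.67).

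The counts by role that follow stand against 68.4% of all genes above background, and each role group holds few genes. Of the factors that specify germ cells or bind RNA in them, 4 of 5 measured were above background. Dazl, an RNA-binding regulator of translation, had 10.56 on replicate 1 and 10.52 on replicate 2 (10.54 ± 0.030, SD, n = 2), which is 4.95 log2 units over the threshold. Its second probe set read 9.62 and 9.67, so both probe sets of Dazl were far above background on each array. Prdm1, a transcriptional repressor needed to found the germ cell lineage, had 7.25 on replicate 1 and 7.16 on replicate 2. Dnd1, an RNA-binding protein needed for germ cell survival, had 6.91 and 7.01. Dppa3, a maternal factor that protects DNA methylation in the early embryo and marks germ cell precursors, had 6.35 and 6.29, only 0.73 over the threshold. Ddx4, the RNA helicase known as Vasa in the fly and a classical marker of established germ cells, had 5.15 on replicate 1 and 5.09 on replicate 2 (5.12 ± 0.041), below the threshold on each array. Dazl and Ddx4 thus lay on opposite sides of the threshold in the same RNA.

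Of the proteins of the meiotic chromosome axis and synaptonemal complex, the zipper that joins paired homologues, 3 of 4 were above background. Hormad1, an axis protein, had 8.66 on replicate 1 and 8.74 on replicate 2, on a probe set marked as shared between transcripts. Sycp3, of the lateral elements, had 8.22 and 8.40 (8.31 ± 0.13). Sycp1, the transverse filament that bridges the gap between them, had 7.21 and 7.38 (7.29 ± 0.13). All 3 were higher on replicate 2. Sycp2, the partner of Sycp3 in the lateral elements, was at 4.30 and 4.29 (4.30 ± 0.0077), 1.29 log2 units below the threshold on its only probe set. The windows of Hormad1, Sycp1 and Sycp3 hold CACGTG, and that of Sycp2 does not.

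Cohesin is the ring that holds sister chromatids together, and meiotic cells exchange several of its subunits for germline versions. Of these, 2 of 3 were above background. Stag3 had 7.62 on replicate 1 and 7.54 on replicate 2, and Smc1b had 6.26 and 6.51. Rec8, the meiotic counterpart of the cleavable subunit, had 5.52 and 5.62 (5.57 ± 0.072), which passed the threshold on replicate 2 and not on replicate 1. It was the member closest below the threshold, by 0.019 log2 units, and it was above background with the 90th percentile, with the median of all probe sets, with unshared probe sets and on replicate 2 alone.

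The genes that make and resolve meiotic DNA breaks gave 2 of 5 above background, both close to the threshold. Msh5, which with Msh4 stabilises recombination intermediates, had 6.15 on replicate 1 and 6.06 on replicate 2. Its second probe set, marked as shared, read 5.58 and 5.69. Dmc1, the meiotic strand-exchange recombinase, had 5.72 and 5.60, and was the member closest above the threshold, by 0.070 log2 units. The second probe set of Dmc1 read 5.16 and 5.18 and was not above background. Msh4 was at 4.54 and 4.31, so the partners Msh4 and Msh5 fell on opposite sides. Spo11, the enzyme that cuts the DNA, was at 4.40 and 4.28, and Mei1, needed for these breaks to form, at 4.70 and 4.19. The count of 2 of 5 was 1 with the 99th percentile of the reference genes, where 67.1% of all genes passed. It was 0 with vomeronasal and taste receptors as the reference, where 61.5% of all genes passed.

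Among PIWI proteins, Tudor proteins and other piRNA factors, 9 of 11 measured were above background. The 3 that were more than 2 log2 units over the threshold, Gtsf1, Mael and Asz1, are not PIWI proteins themselves. Gtsf1, a small zinc finger protein that works with PIWI proteins, had 9.43 on replicate 1 and 9.44 on replicate 2 on a probe set marked as shared, and 8.44 and 8.48 on its unshared one. Mael, a germ granule protein needed for transposon silencing, had 7.95 and 7.97. Asz1, an outer mitochondrial membrane protein that anchors the piRNA machinery, had 7.90 and 7.83 on a probe set marked as shared, and 7.61 and 7.56 on its unshared one. Of these, the window of Mael holds CACGTG and those of Gtsf1 and Asz1 do not.

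By their brightest probe sets the 3 PIWI genes lay within 0.56 log2 units of the threshold. Piwil2, which encodes MILI, had 6.23 on replicate 1 and 6.06 on replicate 2, and Piwil1, which encodes MIWI, had 5.76 and 5.75. Piwil4, which encodes MIWI2, had 5.54 and 5.25 on a probe set marked as shared and 3.19 and 3.30 on the other, and was not above background. Of the helicases, Mov10l1, which feeds piRNA precursors into the pathway, had 6.24 and 6.22, and Tdrd9, which also carries a Tudor domain, had 5.83 and 6.25. Tdrkh, a Tudor protein of piRNA maturation, had 5.93 and 6.10, and Stk31, a Tudor domain protein with a kinase-like part, had 6.56 and 6.65 on a probe set marked as shared, as was its other one. Tdrd1, a Tudor scaffold that binds MILI, was at 4.15 and 4.23, or 1.40 log2 units below the threshold in the mean. Against vomeronasal and taste receptors as the reference the count for this group was 5 of 11, since Piwil1, Piwil2, Tdrd9 and Tdrkh no longer passed. Of all genes 61.5% passed with that reference.

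Other testis-expressed genes were above background in 6 of 8 cases. Tex19.1, which restrains retrotransposons in germ cells and pluripotent cells, had 10.61 on replicate 1 and 10.65 on replicate 2 (10.63 ± 0.029), 5.04 log2 units over the threshold. Its paralogue Tex19.2, looked up after the values were seen, had 8.22 and 8.18 on a probe set of its own; how far the probes tell the copies apart was not tested. Slc25a31, the ADP/ATP carrier of germ cell mitochondria, had 8.54 and 8.53. Tex15, needed for meiotic recombination and transposon silencing in the male, had 8.16 and 8.04. Tex14, a component of the bridges that join germ cells, had 7.54 and 7.66. These genes were at least 2.01 log2 units over the threshold in the mean.

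The X-linked members of this group split. Taf7l, a germ cell version of a subunit of the general transcription factor TFIID, had 8.08 on replicate 1 and 8.05 on replicate 2, while Tex11, a crossover factor, had 5.03 and 4.94. Brdt, the testis bromodomain protein that reads acetylated histones, had 5.95 and 6.05 on a probe set marked as shared, 5.61 and 5.65 on another and 4.51 and 4.70 on the third. Its call thus rested on values within 0.5 log2 units of the threshold. Tex101, a surface protein of sperm maturation, was at 4.77 and 4.75.

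Of the oocyte genes 2 of 3 were above background. Zp3, a glycoprotein of the egg coat, had 6.32 on replicate 1 and 6.37 on replicate 2. Nobox, a homeobox factor of the oocyte, had 5.80 and 5.73, only 0.18 log2 units over the threshold. Figla, the factor known to switch on the egg coat genes, was at 5.32 and 4.96 (5.14 ± 0.26), below it on each array. With vomeronasal and taste receptors as the reference the count was 1, where 61.5% of all genes passed.

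The deleted segment of the WBS region lies on chromosome 5, as do 4 of the members, Brdt, Piwil1, Zp3 and Stag3. In the order of RefSeq genes 0 members lay between Gtf2i and Fkbp6, the genes taken here as the ends of the segment. Zp3 was the nearest, with 15 protein-coding genes between it and Fkbp6. Fkbp6 itself is a germline gene, needed for piRNA silencing and male meiosis, and was not measured here because no probe set was assigned to it alone.

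Genes from related lists set the members in context, and their counts too stand against 68.4% of all genes. All 10 measured germ cell genes that pluripotent cells are known to use were above background, such as the regulator Prdm14 (6.85 on replicate 1 and 7.10 on replicate 2), the factor Tfap2c (6.93 and 6.77) and the receptor gene Kit (9.02 and 9.10). Of regulators of meiotic entry 4 of 6 were. Stra8, the retinoic acid target that starts meiosis, had 7.49 and 7.59, Ythdc2, an RNA helicase of meiotic entry, 7.97 and 7.86, and Sohlh2, a factor of germ cell differentiation, 8.84 and 8.88. Meioc, the partner of Ythdc2, was at 4.68 and 4.63 and Sohlh1, the partner of Sohlh2, at 5.20 and 5.19, so these partners fell on opposite sides of the threshold too.

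Further genes of synapsis and recombination were above background in 7 of 10 cases. The central element genes Syce1 (8.59 on replicate 1 and 8.66 on replicate 2), Syce2 (10.33 and 10.42) and Syce3 (6.08 and 6.09) passed, whereas Tex12 (5.45 and 5.48), of the same element, and Prdm9 (5.50 and 5.66), which marks recombination hotspots, did not. Further piRNA genes passed in 7 of 9 cases. The Tudor genes Tdrd7 (9.12 and 9.18) and Tdrd12 (7.86 and 8.03) and the mitochondrial Pld6 (6.20 and 6.31) were above background, and the Tudor gene Tdrd5 (5.14 and 5.41) and Henmt1 (5.44 and 5.55), which methylates piRNA ends, were not.

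Of further oocyte genes 3 of 10 were above background: the growth factor gene Gdf9 (6.17 on replicate 1 and 6.38 on replicate 2), Ooep (10.18 and 10.24) and Zar1 (6.44 and 6.41), both maternal factors of the egg. The egg coat genes Zp1 (5.12 and 5.09) and Zp2 (3.82 and 3.67) were not, unlike Zp3. Of spermatid and sperm genes 4 of 12 were. The protamine gene Prm1 had 7.12 and 7.01 on a probe set marked as shared, Ldhc, a lactate dehydrogenase of sperm, 6.19 and 6.30, and Gapdhs, a glycolytic enzyme of sperm, 6.02 and 6.04. Prm2 (5.16 and 5.20) and the transition protein gene Tnp1 (3.85 and 3.89) were not above background, and 2 of 12 passed with the median of all probe sets. Over these germline lists together 34 of 56 genes (60.7%) were above background, against 68.4% of all genes. Their promoter windows held CACGTG in 4 of 40 cases (10.0%), near the share of all genes on the array.

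Subunits of the PRC1.6 complex were above background in 9 of 9 cases, against 68.4% of all genes. These 9 genes had 20 probe sets, which gives them more chances to pass. Of the 20, 16 were above background, against 62.7% of all probe sets with 1 symbol. Mga had 9.33 on replicate 1 and 9.36 on replicate 2, Max had 7.86 and 7.93, and E2f6 had 9.02 and 8.88.

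**Figure D3:**
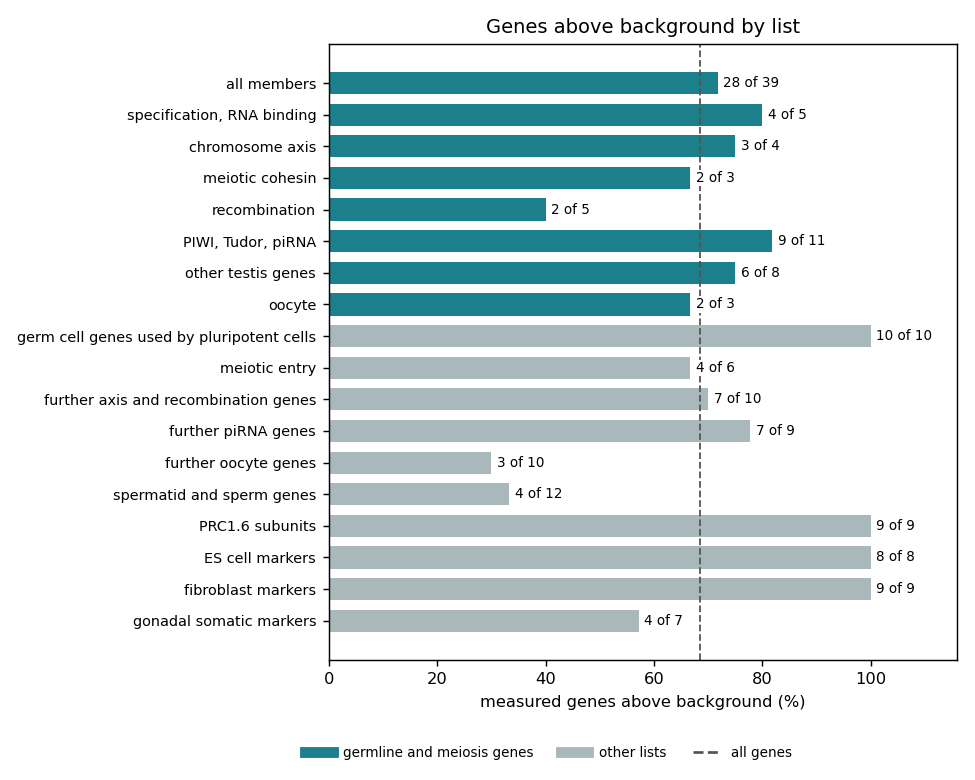
Percentage of measured genes above background in the germline and meiosis genes as a whole (28 of 39), in each role group, and in related lists and marker lists, with the counts at the bars. The dashed line is the share of all genes, 68.4%; the recombination genes (2 of 5), further oocyte genes (3 of 10) and spermatid genes (4 of 12) lie lowest.

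The replicates differed little in these genes. Among the 29 members above the threshold on at least 1 array, replicate 2 minus replicate 1 had a median of 0.012 log2 units and ran from -0.18 in Piwil2 to 0.42 in Tdrd9, with 15 members higher on replicate 2 and 14 on replicate 1. The SD of the difference over these members was 0.13 log2 units, against 0.11 over all 12769 genes selected in this way. A difference of 1.5-fold or more was reached by 0 of the 29 members, and by 0.0783% of the 12769 genes selected in this way.

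The largest difference was that of Tdrd9, 0.42 log2 units, where the 2301 genes with a mean within 0.5 log2 units of its own had an SD of 0.17 and 2.09% of them differed at least as much. Sycp3 differed by 0.19 where genes of like mean had an SD of 0.092, and 4.67% of them differed at least as much. Smc1b differed by 0.25, as did 10.5% of genes of like mean or more. Tex19.1 and Dazl differed by 0.040 and -0.043, within the SD of 0.062 of genes of their levels. Mei1, not above background, differed by -0.51, which was the widest gap among all 39 measured members.

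**Figure D4:**
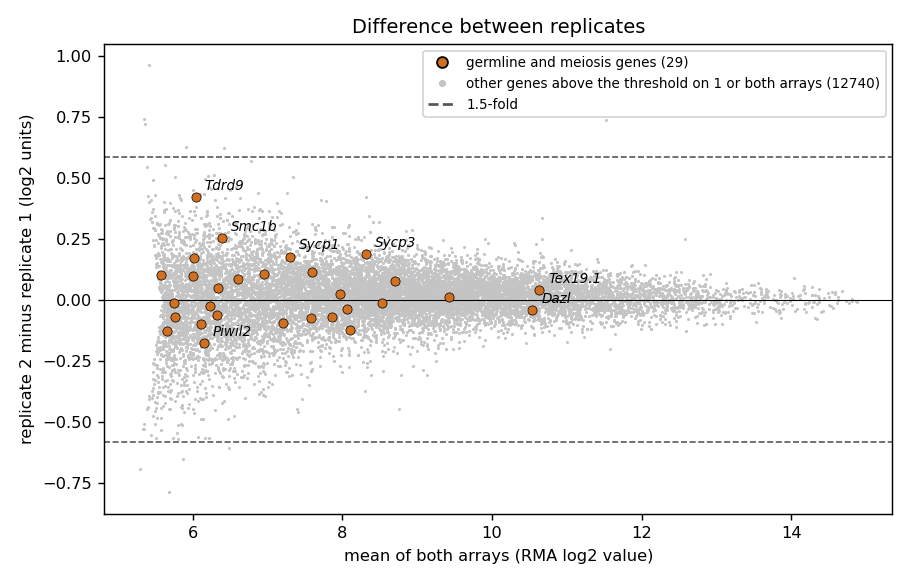
Replicate 2 minus replicate 1 in log2 units against the mean of both arrays, for 29 germline and meiosis genes (large points) and 12740 other genes that passed the threshold on 1 or both arrays (grey). Dashed lines mark 1.5-fold; Tdrd9, at 0.42, is the member furthest from 0, and all 29 lie between the lines.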

How the data were processed

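The deposited values are log2 expression values made by the authors with RMA, per the submitters' processing notes (version and array set: not given in the sources used here). RMA corrects background, equalises the arrays' distributions and summarises probes, which hides a shift common to most genes. Array medians were 6.01 and 6.01. Precision is limited by the number of arrays, 2, which have no depth of reads. Columns not used numbered 0.

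Of 45101 probe sets, 34958 had 1 symbol in the platform annotation, 932 several and 9211 none. The brightest probe set by mean stood for a gene. Thresholds, counts and differences (replicate 2 minus replicate 1) were computed with Python 3.11.15, pandas 2.3.3 and statsmodels 0.14.6. The code for the calls was run on simulated data. Simulated silent genes were drawn like the reference genes, so that run cannot check calls on real probe sets near the threshold. For promoters the most upstream RefSeq window of a gene was used, with chromosome 18 left out. Dnd1 lies on that chromosome, so whether it has a window was not examined. The alternatives were vomeronasal and taste receptors as the reference, the 90th and 99th percentiles, the median of all probe sets, unshared probe sets (without _a_at, _s_at and _x_at), each array alone, loess (fraction 0.3), centring, no filter on dim genes and a 2-fold limit. Genes with 1 probe set and any window of a gene were added after seeing the data.

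The members and lists were chosen with earlier results of these data known. Every member is named. Of each other list the first 3 genes above background and the first 2 not above it, in list order, are named. Fkbp6 is named for its place in the WBS region, and others as marked.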

Additional observations from a re-analysis of the deposited data

How the results depend on the processing

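The count of 28 of 39 members above background (71.8%, against 68.4% of all genes) was 20 (51.3%, against 61.5%) with vomeronasal and taste receptors as the reference, 27 (69.2%, against 67.1%) with the 99th percentile, 30 (76.9%, against 74.8%) with the 90th, 29 (74.4%, against 66.9%) with the median over a gene's probe sets and 27 of 36 (75.0%, against 69.4%) with unshared probe sets. It was 28 to 29 with each array alone and 21 of 31 for genes with 1 probe set. The 34 of 48 member probe sets ranged from 24 to 38, and were 28 of 39 with unshared probe sets. The share of all probe sets was computed only for the main setting. The 34 of 56 other germline genes ranged from 31 to 41 over these settings, and were 34 of 51 with unshared probe sets. The reference rests on 39 genes, or 37 for the alternative, so single genes set it. The threshold for the mean moved from 5.59 to 5.28 with the median or with unshared probe sets. With vomeronasal and taste receptors it was 6.08. Taking the median or the unshared probe sets gave another level for a member in 12 cases, in the 8 genes with several probe sets, and all 12 moved by more than the SD between arrays. With 1 array alone such a shift is not possible. For Piwil4 the unshared probe set gave 3.24 in place of 5.40. The median replicate difference of the members, 0.012, was between -0.021 without the filter on dim genes and 0.013 with centring, and 0 members reached 1.5-fold under any of the settings. CACGTG stood in 15 of 33 windows with any window of a gene. No paired analysis was possible because there is only 1 group. Signal over background limits the members near the threshold, where silent and weakly transcribed genes cannot be told apart.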
